A study of Mus musculus with 2 samples.

Results

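The let-7 family is a set of microRNA genes whose mature products carry the same seed, the stretch near the 5′ end through which a microRNA finds its target mRNAs. The 10 genes described here were chosen by name: Mirlet7a-1, Mirlet7a-2, Mirlet7b, Mirlet7c-1, Mirlet7c-2, Mirlet7d, Mirlet7f-2, Mirlet7g, Mirlet7i and Mir98, of 1973 miRNA genes counted in all. Of the 12 mouse genes taken here as the let-7 family, Mirlet7e and Mirlet7f-1 have no row of their own in the count tables. The tissue was limb from B6NCrl mouse embryos at embryonic day 13.5, with male and female material pooled and no treatment or genetic change given in the labels. The series holds 1 group with 2 libraries, labelled as biological replicates 1 and 2, which were made from separate tissue samples under 1 donor label. RNA of a short size range (below 30 in the labels, which give no unit) was sequenced. No second tissue, age or genotype was analysed here, so genes are compared with each other and between the 2 libraries only.

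As background, let-7 was found in the worm Caenorhabditis elegans as a regulator of developmental timing. In mammals let-7 levels generally increase as cells differentiate. Known targets in mammals include mRNAs of Lin28a, Hmga2, Trim71 and Myc, genes of embryonic and dividing cells. LIN28 proteins in turn bind the loop of let-7 precursors and block their processing, and their zinc knuckles read a GGAG motif in that loop. Limb tissue at this age holds mesenchyme, cartilage, muscle, vessels, blood and ectoderm, all in 1 lysate.

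All 12 family hairpins matched a RefSeq entry (GRCm38.p6, the assembly mm10 is built on), and the 5p arm, which carries the seed, has 9 distinct sequences among them. These sequences are shown because a read can be given to a gene only where its bases differ from those of the other genes. Capitals mark the seed, bases 2 to 8.
let-7a: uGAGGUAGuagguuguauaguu
let-7b: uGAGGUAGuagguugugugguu
let-7c: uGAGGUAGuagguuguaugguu
let-7d: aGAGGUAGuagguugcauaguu
let-7e: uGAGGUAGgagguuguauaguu
let-7f: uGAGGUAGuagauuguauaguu
let-7g: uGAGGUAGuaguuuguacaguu
let-7i: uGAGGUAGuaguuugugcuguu
miR-98: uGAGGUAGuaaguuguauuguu

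All 9 sequences are 22 bases long and share the seed GAGGUAG, so no member can be told from another by it. With positions counted from 1 at the 5′ end, let-7c differs from let-7a by A19G, let-7e by U9G and let-7f by G12A. Further apart, let-7b carries A17G and A19G, let-7d U1A and U16C, let-7g G12U and U18C, and miR-98 G11A and A19U. The let-7i sequence carries G12U, A17G, U18C and A19U. Over the 36 pairs of sequences the number of differing bases ran from 1 to 6, and 4 pairs differed at 1 base.

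**Figure D1:**
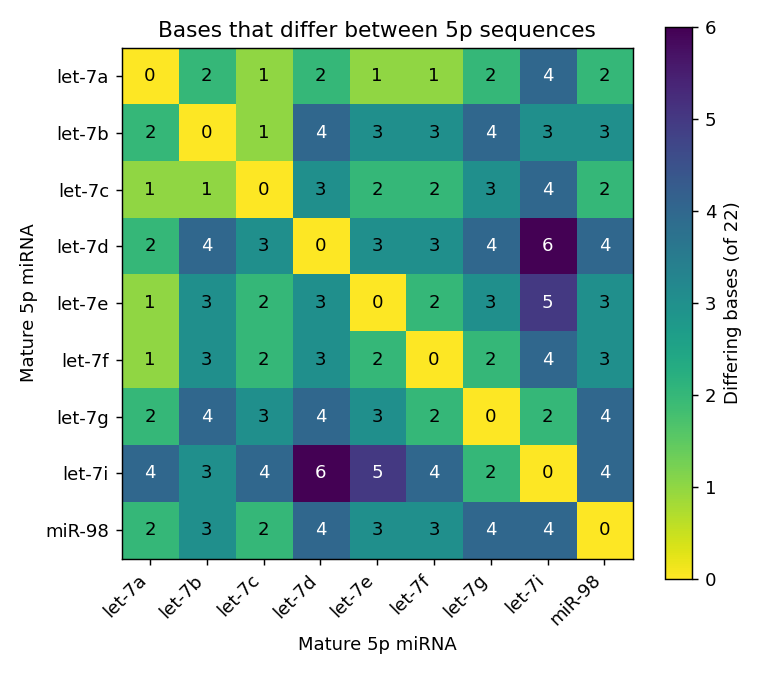
Number of bases, of 22, at which each pair of the 9 mature 5p sequences differs (both axes list the sequences). The lowest numbers join let-7a to let-7c, let-7e and let-7f, and let-7b to let-7c, each at 1 base, and the highest, 6, joins let-7d to let-7i.

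The 5p sequence belongs to 1 gene for 6 of the 9 sequences and to 2 genes for the other 3. Among all RefSeq hairpins used here and all miRNA transcripts of GENCODE M21, let-7a was found in Mirlet7a-1 and Mirlet7a-2, let-7c in Mirlet7c-1 and Mirlet7c-2, and let-7f in Mirlet7f-1 and Mirlet7f-2. The 3p arm, from the other side of the hairpin, adds a further overlap, shown here because it leaves 2 members with no arm of their own.
let-7a-1-3p: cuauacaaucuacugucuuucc
let-7c-2-3p: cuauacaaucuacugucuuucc
let-7a-2-3p: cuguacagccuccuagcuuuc
let-7c-1-3p: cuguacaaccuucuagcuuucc
let-7f-2-3p: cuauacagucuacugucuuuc

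The 3p arms of Mirlet7a-1 and Mirlet7c-2 are identical, so neither gene has an arm sequence of its own. Mirlet7a-2, Mirlet7c-1 and Mirlet7f-2 share their 5p arm and have a 3p arm found in no other hairpin. Mirlet7g, Mirlet7i, Mirlet7d, Mir98 and Mirlet7b have both arms to themselves. Such sharing matters most directly for the levels of members that share an arm. The deposited tables set reads that map to several places apart from all genes. Multimapping reads amounted to 30.8% of the reads in replicate 1 and 29.5% in replicate 2, and outnumbered the reads counted for the 10 members 8.05-fold and 6.94-fold. How many of them are let-7 reads was not tested.

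Replicates 1 and 2 held 12407140 and 12657170 reads, and their sense counts in miRNA genes summed to 5927321 and 6003632. CPM here means sense counts per 1000000 of that sum, and a count of 0 allows up to 0.506 and 0.5 CPM. The 7 limb markers looked up (among them the cartilage gene Mir140 and the muscle gene Mir206) lay between 3741 and 79590 CPM. Of the 7 markers of tissues outside the limb, 4 lay between 4.89 and 80.6 CPM. The other 3, the neuronal Mir124a genes, were at 0 in both libraries, but these genes are known to give the same mature sequence, so with multimapping reads set apart their zeros do not show that neuronal RNA was absent. Genes looked up after these values were seen did not keep to this split. By mean, the neuronal Mir137 and Mir128-1 stood at 129 and 167 CPM. The muscle genes Mir133b and Mir208b and the vessel gene Mir145a stood at 75.3, 101 and 108 CPM. The 2 blood markers, Mir451a and Mir223, lay between 74.7 and 319 CPM. In whole tissue, fewer cells of a type and less RNA per cell cannot be told apart. Nothing in the labels gives a batch.

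The 10 members together received 474417 sense counts in replicate 1 and 537546 in replicate 2. These are 8.004% of the sense total (95% Wilson interval 7.98 to 8.03) and 8.95% (8.93 to 8.98), a mean of 8.48% ± 0.67 (SD, n = 2). The intervals cover counting error only and do not overlap, so the libraries differed by more than counting error. All 10 members had at least 10 counts in each library, which 18.9% of the 1973 counted genes did.

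Most of the reads counted for the family came from Mirlet7g and Mirlet7i, which lie outside the let-7 clusters. Reads that map to several places are not among them. Shares of the family given here are therefore shares of the counted reads only, and do not give the make-up of all let-7 RNA in the limb. Mirlet7g (chromosome 9, 106178840 to 106178927, plus strand) sits in an intron of Wdr82, which encodes a subunit of a histone methyltransferase complex. It had 232960 and 249493 counts in replicates 1 and 2, or 39303 and 41557 CPM, a mean of 40430 ± 1594 CPM (SD, n = 2). Its place among all counted genes was 6 in both libraries.

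Mirlet7i (chromosome 10, 122985640 to 122985724, minus strand) lies within an exon of D630033A02Rik, annotated as a transcribed processed pseudogene. It had 173833 and 207970 counts, or 29327 and 34641 CPM, a mean of 31984 ± 3757 CPM (SD, n = 2). Mirlet7g was above Mirlet7i in both libraries, 1.34-fold in replicate 1 and 1.20-fold in replicate 2. The pair made up 85.4% ± 0.5 (SD, n = 2) of the family's counts.

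Mirlet7d came next, 5.29-fold below Mirlet7i. It lies on chromosome 13 (48536012 to 48536114, minus strand) in an exon of the lincRNA 6720427I07Rik, and had 5427 and 6656 CPM in replicates 1 and 2. Its mean was 6041 ± 869 CPM (SD, n = 2), or 7.11% of the family. It is the member whose 5p arm begins with a instead of u.

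Mir98 had 2881 and 3409 CPM, a mean of 3145 ± 373 CPM (SD, n = 2), and lies on the X chromosome at 151913214 to 151913321 (plus strand), in an intron of Huwe1, which encodes a ubiquitin ligase. Mirlet7b had 1728 and 1854 CPM, a mean of 1791 ± 89 CPM (SD, n = 2). It lies on chromosome 15 at 85707319 to 85707403 (plus strand), in an exon of the non-coding transcript Lncppara. With these, the 5 members with a 5p sequence of their own made up 98.3% ± 0.1 (SD, n = 2) of the family's counts.

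The other 5 members, which share their 5p sequence with another gene, were all lower. Mirlet7f-2, also in an intron of Huwe1 (X chromosome, 151912346 to 151912428, plus strand), had 1001 and 1089 CPM, a mean of 1045 ± 62 CPM (SD, n = 2). Mirlet7a-2 (chromosome 9, 41536716 to 41536811, plus strand), in introns of the non-coding 3110039I08Rik and Gm49317, had 737 and 668 counts, or 124 and 111 CPM. It stood 8.87-fold below Mirlet7f-2, the widest step between neighbours in the order.

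Mirlet7c-1 (chromosome 16, 77599657 to 77599750, plus strand), in an intron of Mir99ahg, had 588 and 527 counts, or 99.2 and 87.8 CPM. Mirlet7a-1 (chromosome 13, 48538179 to 48538272, minus strand), in an exon of 6720427I07Rik, had 591 and 496 counts, or 99.7 and 82.6 CPM. Their order was not resolved, since each was above the other in 1 library. Mirlet7c-2 (chromosome 15, 85706603 to 85706697, plus strand), in an exon of Lncppara, was lowest with 290 and 300 counts, or 48.9 and 49.97 CPM.

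**Figure D2:**
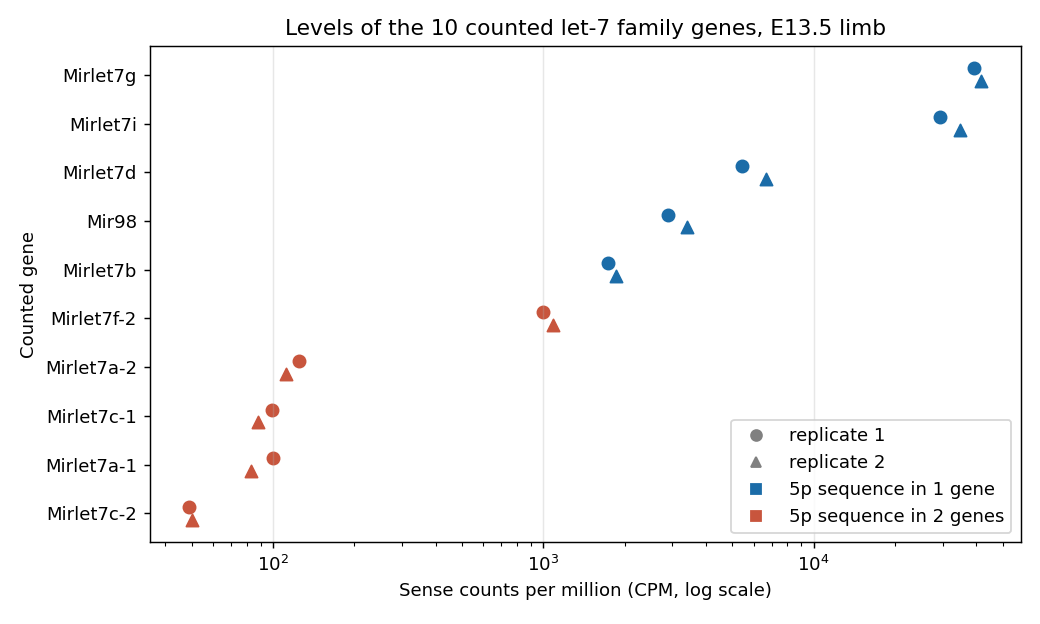
Sense CPM (log axis) of the 10 counted members in replicate 1 (circles) and replicate 2 (triangles), coloured by whether the 5p sequence is found in 1 gene or in 2 genes. The 5 members with their own 5p sequence sit between 1728 and 41557 CPM, all above the 5 that share it, which sit between 48.9 and 1089 CPM.

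Every other neighbour in this order kept its order in both libraries, and the gap of means was larger than the sum of the SDs of the 2 genes. The range from Mirlet7g to Mirlet7c-2 was 803-fold in replicate 1 and 832-fold in replicate 2. Hairpins of the members are 83 to 108 bases long, and dividing each level by that length left 10 of 10 members in the same place. In rank among all 1973 genes by mean CPM the members stood at 6, 9, 33, 53, 75, 97, 176, 192, 193 and 225.

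Counted levels thus differed between the 2 kinds of member with no overlap in either library. A read of exactly a shared 5p sequence matches 2 genes, and reads with several mapping places are counted for no gene. The divide is thus drawn by the same property that decides whether such reads are counted. It cannot be read as a difference in the amount of mature RNA, and what the reads set apart would change was not tested. The median of the 5 members with a 5p sequence of their own was 5427 CPM in replicate 1 and 6656 CPM in replicate 2, against 99.7 and 87.8 CPM for the 5 that share it. The log2 ratio of these medians was 6.01 ± 0.34 (SD, n = 2), or 54.4-fold in replicate 1 and 75.8-fold in replicate 2. The smallest step across the divide was that from Mirlet7b to Mirlet7f-2, 1.71-fold. Members are not replicates of a condition, so this difference carries no test. Among those that share it, Mirlet7f-2, Mirlet7a-2 and Mirlet7c-1 have an own 3p arm, and Mirlet7a-1 and Mirlet7c-2 have none. Mirlet7f-2 and Mirlet7a-2 lay above both members without one in both libraries. Mirlet7c-1 lay above Mirlet7c-2 in both libraries but was not resolved from Mirlet7a-1. For the family as a whole the median was 1364 and 1471 CPM, which lies between the levels of Mirlet7b and Mirlet7f-2. Beside it, the median was 49.7 and 49.97 CPM over the 444 genes tested between libraries. Over genes with at least 10 counts in each library, as all members had, it was 107 and 103 CPM. For the 5 members that share their 5p sequence, reads with several mapping places are not in these levels.

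Antisense columns give a view of the 2 family genes without a row. Mirlet7e (chromosome 17, 17830352 to 17830444, plus strand, in an intron of Spaca6) lies wholly under Gm25927, a counted gene on the opposite strand. Antisense reads over Gm25927, which are on the strand of Mirlet7e, numbered 32184 in replicate 1 and 32425 in replicate 2, or 5430 and 5401 CPM, while its sense strand had 0 counts in both. At a mean of 5415 ± 20 CPM (SD, n = 2) this is in the range of Mirlet7d, from which it was not resolved: 5430 against 5427 CPM for Mirlet7d in replicate 1, and 5401 against 6656 CPM in replicate 2.

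Mirlet7f-1 (chromosome 13, 48537829 to 48537917, minus strand, in an exon of 6720427I07Rik) lies wholly under Gm24111 in the same way. Antisense reads over Gm24111 numbered 299 in each library, or 50.4 and 49.8 CPM, and its sense strand had 1 and 3 counts. Mirlet7f-2, with the same 5p sequence, was 19.8-fold and 21.9-fold above that in replicates 1 and 2. With these genes added, the 6 that have a 5p sequence of their own had at least 1728 and 1854 CPM, and the 6 that share one had at most 1001 and 1089 CPM. Reads on the strands of Mirlet7e and Mirlet7f-1 are not part of the 8.48% above. The antisense columns do not name the genes from which these reads came.

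Outside these 12 genes, RefSeq gives the let-7 seed to 2 more mature sequences, both on chromosome 5.
miR-1961: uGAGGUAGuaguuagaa
let-7k: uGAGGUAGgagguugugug

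Mir1961 and Mir7k, their genes, are counted and had 0 counts on either strand in both libraries. At this depth neither was detected.

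Most let-7 genes lie in clusters, where hairpins on 1 strand may share a primary transcript. Levels within a cluster were far apart in some pairs and nearer in others. On chromosome 13, Mirlet7d was above Mirlet7a-1, 2064 bases away, by a log2 ratio of 6.05 ± 0.40 (SD, n = 2), or 66.2-fold. Reads on the strand of Mirlet7f-1, in the same cluster, were nearer to Mirlet7a-1. They stood at 50.4 and 49.8 CPM in replicates 1 and 2, against 99.7 and 82.6 CPM for Mirlet7a-1. On chromosome 15, Mirlet7b was above Mirlet7c-2, 621 bases away, by 5.18 ± 0.05 (log2, SD, n = 2), or 36.1-fold. On the X chromosome, Mir98 was above Mirlet7f-2, 785 bases away, by 1.59 ± 0.09 (log2, SD, n = 2), or 3.0-fold. In all 3 pairs compared by log2 ratio the higher gene is the one with a 5p sequence of its own, in both libraries. This follows from the divide between the 2 kinds of member described above and adds nothing to it.

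Other let-7 clusters pair a let-7 gene with Mir99, Mir100 and Mir125 genes, the last being the vertebrate relatives of worm lin-4. Mirlet7c-1 had 99.2 and 87.8 CPM in replicates 1 and 2, against 63247 and 62296 CPM for Mir99a, 656 bases away. Its log2 ratio over Mir99a was -9.39 ± 0.11 (SD, n = 2), or 672-fold below. Against Mir125b-2 in the same cluster, with 496 and 534 CPM, the log2 ratio was -2.46 ± 0.20 (SD, n = 2).

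On chromosome 9, Mirlet7a-2 had 124 and 111 CPM, against 17825 and 16646 CPM for Mir100. Its log2 ratio over Mir100 was -7.19 ± 0.04 (SD, n = 2), or 146-fold below. Over Mir125b-1, with 1447 and 1435 CPM, it was -3.61 ± 0.11 (SD, n = 2), or 12.2-fold below. Mir125b-1 and Mir125b-2 share their 5p sequence with each other, whereas Mir99a, Mir100, Mir99b and Mir125a each have both arms to themselves. The let-7 gene was thus nearer in level to the partner that also shares its 5p sequence, in both clusters and both libraries. What multimapping reads add to these ratios was not tested.

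The third such cluster, on chromosome 17, has a let-7 gene with its own 5p sequence. Reads on the strand of Mirlet7e, at 5430 and 5401 CPM, compare with 26843 and 24498 CPM for Mir99b and 4173 and 3571 CPM for Mir125a. The log2 ratio was -2.24 ± 0.09 over Mir99b and 0.49 ± 0.15 over Mir125a (SD, n = 2 each), so here too the Mir125 gene was the nearer partner in level, although it has both arms to itself. Partner genes of these 3 clusters all lay above 10 counts, at 515 to 62771 CPM by mean.

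**Figure D3:**
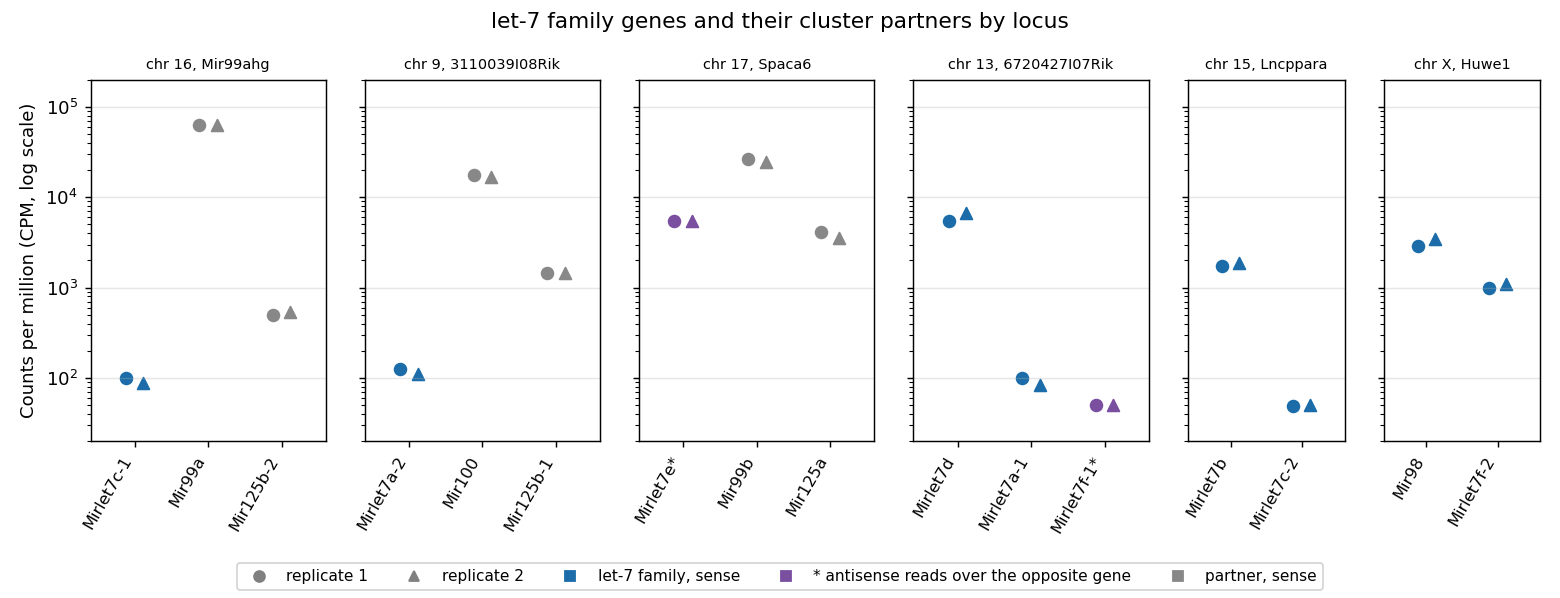
CPM (log axis) in replicate 1 (circles) and replicate 2 (triangles) of the genes of 6 let-7 loci, headed by chromosome and host transcript. Blue marks let-7 family genes and grey their partners, both from sense reads, and purple marks antisense reads over the gene opposite Mirlet7e or Mirlet7f-1. Mirlet7c-1 and Mirlet7a-2 sit at 87.8 to 124 CPM, while Mir99a and Mir100 sit at 16646 to 63247 CPM.

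The loop between the arms was compared next, because LIN28 binds there. Loops of 9 members, from the base after the 5p arm to the base before the 3p arm, are shown with GGAG in capitals.
Mirlet7g: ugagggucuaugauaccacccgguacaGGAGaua
Mirlet7i: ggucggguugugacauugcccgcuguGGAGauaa
Mirlet7d: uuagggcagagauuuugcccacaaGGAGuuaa
Mirlet7b: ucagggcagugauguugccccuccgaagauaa
Mirlet7f-2: uuagggucauaccccaucuuGGAGauaa
Mirlet7a-2: uagaguuacaucaagGGAGauaa
Mirlet7c-1: uagaguuacacccugGGAGuuaa
Mirlet7a-1: uuagggucacacccaccacugGGAGauaa
Mirlet7c-2: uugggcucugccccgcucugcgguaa

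The letters GGAG, searched on the RNA strand only, were in 7 of these 9 loops (77.8%), and in 9 of 11 with Mirlet7e and Mirlet7f-1. Where present, the motif occurs once in a loop and starts 7 or 8 bases before the 3p arm. Mirlet7b and Mirlet7c-2 lack it in this window. Among 633 other RefSeq hairpins with an arm annotated on each side, 6.95% had GGAG in the loop, and among the 42 with a loop of 23 to 34 bases, the range of the loops compared, 11.9% did. Among the 9 members compared, levels did not separate by the motif: members with it ranged from 82.6 to 41557 CPM and Mirlet7b and Mirlet7c-2, without it, from 48.9 to 1854 CPM. The median of members with the motif was 1001 and 1089 CPM in replicates 1 and 2, which lies between the levels of Mirlet7b and Mirlet7c-2 in both libraries. A match describes the letters and does not show binding.

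Between the 2 libraries no member reached an absolute log2 ratio of 1. No member passed an exact binomial test with Benjamini-Hochberg adjustment and an absolute log2 ratio of at least 1, a rule that called 3.38% of the 444 genes tested. At an unadjusted p under 0.05, 9 members passed, as did 201 of all genes tested, and with TMM or DESeq2 library sizes the count of members called stayed at 0. Without the minimum ratio 7 of 10 members passed, against 40.3% of all genes tested. Of the 7 that passed, 6 were lower in replicate 1, beside 81 of the 179 genes that passed (18.2% of all genes tested). The remaining 1 was higher in replicate 1, beside 98 of the 179 (22.1% of all genes tested). This test covers counting error between these libraries only, and deep counts pass it at small ratios.

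Log2 ratios of replicate 1 over replicate 2 ran from -0.29 for Mirlet7d to 0.27 for Mirlet7a-1, with a median of -0.09, beside 0.02 over all genes tested. All 5 members with a 5p sequence of their own were lower in replicate 1 and passed the adjusted p, as was Mirlet7f-2, at -0.12 (exact binomial test, adjusted p = 1.26e-05). Mirlet7i was at -0.24 and Mirlet7g at -0.08. Mirlet7a-1 was the member that passed in the other direction (exact binomial test, adjusted p = 0.00694). Mirlet7a-2 at 0.16, Mirlet7c-1 at 0.18 and Mirlet7c-2 at -0.03 did not pass (adjusted p = 0.0904, 0.0931 and 0.896, exact binomial test).

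As a scale for these ratios, the 190 genes of at least 100 CPM had a median absolute log2 ratio of 0.13 and a 90th percentile of 0.33. Of the 7 members in that range, 4 exceeded the median and none exceeded the 90th percentile.

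**Figure D4:**
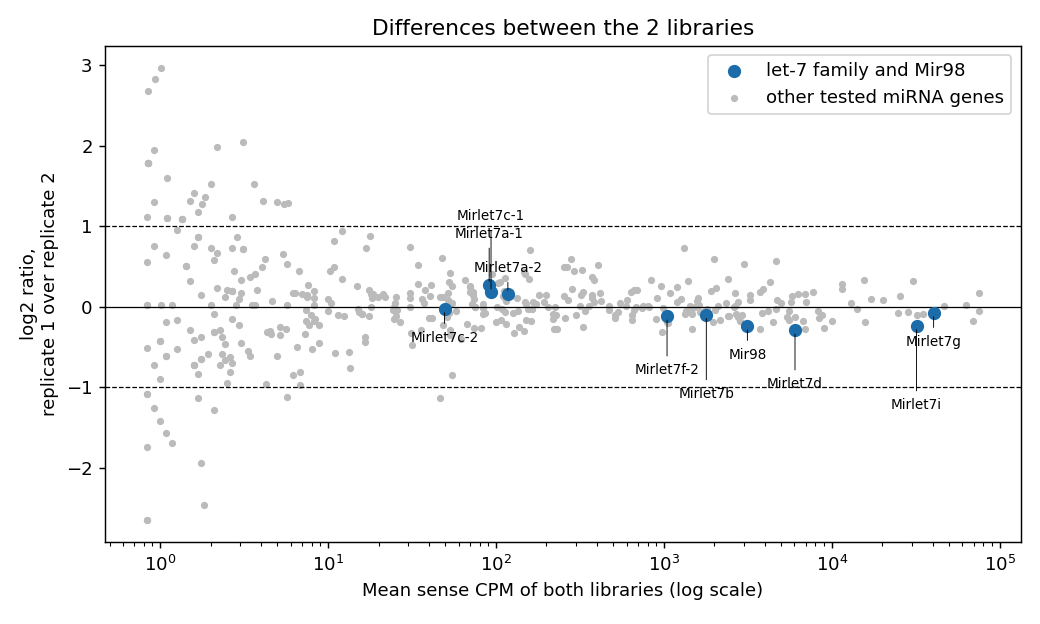
Log2 ratio of replicate 1 over replicate 2 against mean sense CPM (log axis) for the 10 members (blue) and the other tested genes (grey), 444 in all, with dashed lines at a log2 ratio of 1 and -1. All members lie between -0.29 and 0.27, inside the dashed lines.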

How the data were processed

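The deposited files hold whole-number read counts per miRNA gene, with either-strand, sense and antisense columns (3 in all) and 4 lines on top for reads outside genes. No header names the columns: their roles were read from the layout, since the first equals the sum of the others in all 1973 genes. Build mm10 is per the labels, and GENCODE M4 per the text deposited with the counts. For the aligner and counter, no name or version is given in the sources used here. Unmapped reads were 17.2% and 18.6% and reads with no gene in the sense column 4.24% and 4.48% of all reads in replicates 1 and 2, and stayed out of the sense totals.

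Symbols, coordinates and hosts came from GENCODE M21, which gave a symbol to 1894 counted genes, all 10 members among them. Sequences came from RefSeq (GRCm38.p6), and the loop of 1 member is not reported here and stayed out of the loop counts. CPM is sense counts over the sense total. Ratios had 0.5 counts added. Libraries were compared with a two-sided exact binomial test over genes with at least 10 counts in sum (scipy 1.17.1), Benjamini-Hochberg adjusted at 0.05. It was tested on simulated counts whose only random variation was counting error. That simulation does not cover further variation between libraries. Means are given with the SD over 2 libraries. Alternatives used edgeR 4.0.16 and DESeq2 1.42.0 library sizes. Without molecular identifiers, intervals and limits cover counting error only. Members, lists and tests were chosen with earlier results of these data known. Named are all members, Mirlet7e and Mirlet7f-1, cluster partners, hosts and other genes with the seed, beside markers.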

Additional observations from a re-analysis of the deposited data

Results flagged for a closer look

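Reads in the antisense column, outside the sense counts on which the levels rest, were above the 3 counts that a 0 allows at 3 places. Over Gm25927, on the strand of Mirlet7e, they averaged 5415 CPM. Over Gm24111, on the strand of Mirlet7f-1, they averaged 50.1 CPM. Opposite Mirlet7b they averaged 1.42 CPM, from 7 and 10 reads in replicates 1 and 2. Of the other 9 members, Mir98 had 1 antisense read in replicate 1 and the rest had 0 in both libraries.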

How the results depend on the processing

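The family share of 8.48% was 4.04% with all reads as the denominator and 4.44% without Mirlet7g. It was 7.77% with the reads of no gene in the sense column added to the sense total. It stayed within 1 SD under both strands (8.21%), detected genes alone (8.48%), members with an own 5p sequence alone (8.34%), and reads on the strands of Mirlet7e and Mirlet7f-1 added (8.98%). The count of members called between libraries was 0 under 4 alternatives and 7 without the minimum ratio. The log2 ratio of members with an own over a shared 5p sequence (6.01) ran from 5.77 to 6.24 over its alternatives, those added after the data were seen (Mirlet7f-2 left out, or the reads for Mirlet7e and Mirlet7f-1 included) among them. No ratio changed sign. All 10 levels were lower with all reads as the library size, as that total is larger, and Mirlet7c-2 was 47.9 CPM with both strands. No paired analysis was possible because there is 1 group. Without a second group, and with 2 libraries, the SD rests on 1 difference per gene. For the 5 members that share their 5p sequence, reads with several mapping places are kept apart from all genes, and their effect was not tested.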
